A study of Homo sapiens with 14 samples.

Results

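Chromatin that was open in every library of both multiple myeloma (MM) cell lines, away from any transcription start site (TSS), was described here. Omni-ATAC had been used to profile accessibility. Its transposase cuts and tags open DNA, so that accessible regions appear as peaks of reads. The members were selected on the support number that the reference peak lists give for each peak, read as the number of libraries in which it was called. A distal peak was a member when it lay on chromosomes 1 to 22, was called in all 9 MM.1S libraries, shared at least 1 bp with a peak of full support (5 libraries) in RPMI8226, and did not touch the 2500 bp on either side of any GENCODE TSS. These peaks numbered 11853 of the 72802 peaks listed for MM.1S. The RPMI8226 list held 79969 peaks.

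MM.1S and RPMI8226 are human lines of malignant plasma cells. MM cells were grown alone (MONO) or with HS5, a human bone marrow stromal line, and cocultured cells were collected from 2 places. TSW cells sat above a transwell membrane without contact to HS5, and CO cells lay below it in contact with the stromal layer. MM.1S had 3 MONO, 3 TSW and 3 CO libraries, and RPMI8226 had 1 MONO, 2 TSW and 2 CO libraries. By the study's methods the cells were sorted as negative for CD90, a stromal surface protein, and positive for CD38, a plasma cell surface protein. The labels do not say whether the libraries of a group came from separate cultures, and each line is a single source of cells, so the 2 lines are not replicates of myeloma. Peak presence was the only value in the lists. A peak found in all libraries may still have differed in height between MONO, TSW and CO, and this could not be measured here.

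Distal accessible chromatin holds enhancers, which bind transcription factors and raise the activity of genes that can lie far away, and insulators. Insulators often bind CTCF, a zinc finger protein that with cohesin holds the bases of chromatin loops. Plasma cells keep an enhancer programme built on IRF4, PRDM1 and XBP1, which support antibody secretion, while B cell regulators such as PAX5 are silenced. AP-1 factors (JUN and FOS proteins) answer growth and stress signals, RUNX and ETS proteins act across blood lineages, and interferon-stimulated response elements (ISRE) are bound by IRF proteins.

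The central 200 bases of 6 members show what these sites look like in sequence. Each is the member with a match to the named motif that lies closest to a TSS among the plasma cell, myeloma and study-named genes searched. Not every listed gene was searched for these examples, so a nearer match may exist. All are reference sequence of hg38 from the plus strand, 5′ to 3′, and capitals mark the motif match. The CTCF example was intergenic, 55.9 kb from TNFRSF13B, a receptor of plasma cell survival factors (chr17:16916096-16916295). The AP-1 example lay 3.57 kb from the TSS of SOCS3, a feedback inhibitor of cytokine signalling (chr17:78356403-78356602). An intron held the ETS example, 25.9 kb from the TSS of SGK1, a serum- and glucocorticoid-induced kinase (chr6:134236099-134236298), and its window also matched AP-1, EICE (a joint element of ETS and IRF proteins) and STAT. The RUNX example was intronic and 3.28 kb from the TSS of JCHAIN, the chain that joins polymeric antibodies (chr4:70678434-70678633). The ISRE example lay 6.72 kb upstream of CD38 (chr4:15771514-15771713). The OCT example lay 27.9 kb upstream of MAF, a myeloma oncogene (chr16:79628579-79628778), with AP-1 and RUNX matches in the same window.
TNFRSF13B, CTCF: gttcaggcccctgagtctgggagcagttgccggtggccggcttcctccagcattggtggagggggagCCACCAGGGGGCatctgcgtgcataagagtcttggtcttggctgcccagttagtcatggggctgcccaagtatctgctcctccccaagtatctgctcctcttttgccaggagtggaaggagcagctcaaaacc
SOCS3, AP-1: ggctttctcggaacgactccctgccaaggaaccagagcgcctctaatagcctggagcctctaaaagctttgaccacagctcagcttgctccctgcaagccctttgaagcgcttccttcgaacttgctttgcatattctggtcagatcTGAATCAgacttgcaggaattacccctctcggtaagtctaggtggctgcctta
SGK1, ETS: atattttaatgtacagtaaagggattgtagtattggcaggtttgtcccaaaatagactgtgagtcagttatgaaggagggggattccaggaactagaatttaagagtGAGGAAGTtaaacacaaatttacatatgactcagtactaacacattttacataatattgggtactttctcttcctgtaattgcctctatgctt
JCHAIN, RUNX: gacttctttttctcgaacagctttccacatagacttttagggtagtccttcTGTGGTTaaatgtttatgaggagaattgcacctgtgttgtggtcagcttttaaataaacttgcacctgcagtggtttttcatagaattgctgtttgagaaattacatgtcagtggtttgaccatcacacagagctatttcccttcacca
CD38, ISRE: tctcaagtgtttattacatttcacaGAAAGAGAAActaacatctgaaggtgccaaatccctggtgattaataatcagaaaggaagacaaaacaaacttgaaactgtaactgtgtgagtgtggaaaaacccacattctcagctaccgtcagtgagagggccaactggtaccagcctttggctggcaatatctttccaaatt
MAF, OCT: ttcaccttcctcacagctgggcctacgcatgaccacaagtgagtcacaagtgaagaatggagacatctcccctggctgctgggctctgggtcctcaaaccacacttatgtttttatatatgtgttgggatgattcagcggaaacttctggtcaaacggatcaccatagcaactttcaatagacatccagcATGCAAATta

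Selection narrowed the MM.1S list step by step. Of 70840 peaks on chromosomes 1 to 22, 36818 were called in all 9 libraries, and 26500 of these matched a fully supported RPMI8226 peak. Promoter windows took 14647 of the 26500, which left 11853 distal members, or 44.7% (95% Wilson interval 44.1 to 45.3). Members made up 27.5% (27.1 to 27.9) of the 43098 distal MM.1S peaks. Intervals here and below cover counting error over peaks only, since peaks of the same libraries are not replicates. The remaining distal peaks formed 2 classes for comparison, namely 13978 that overlapped an RPMI8226 peak without being constant in both lines and 17267 that overlapped none. The latter are called MM.1S-only.

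The counts piled up at full support. Just outside the threshold were 2630 distal peaks called in 8 MM.1S and 5 RPMI8226 libraries, with a median width of 496 bp, and 1465 called in 9 and 4 libraries, with a median of 560 bp. Members had a median width of 625 bp. Another 4040 distal peaks were called in all 9 MM.1S libraries and matched no RPMI8226 peak.

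**Figure D1:**
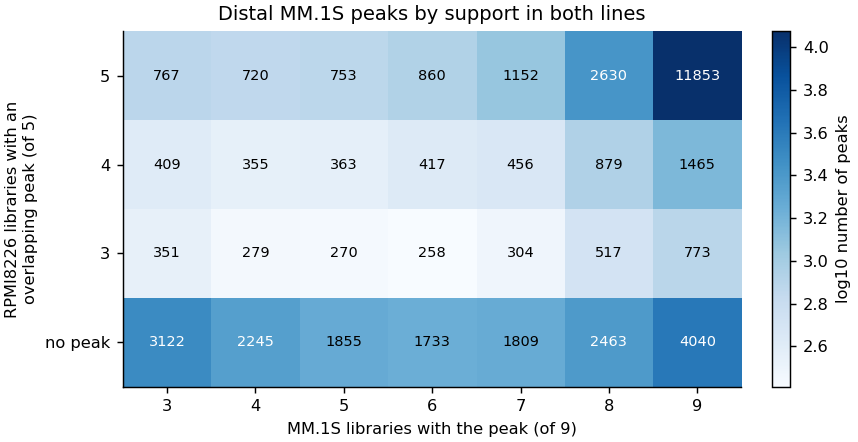
Number of distal MM.1S peaks by the number of MM.1S libraries with the peak (horizontal axis) and the number of RPMI8226 libraries with an overlapping peak (vertical axis), with colour on a log10 scale. The top right cell holds the 11853 members, and its neighbours hold 2630 and 1465 peaks.

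As a check of cell identity, all 8 plasma cell marker genes (SDC1, TNFRSF17, PRDM1, IRF4, XBP1, CD38, SLAMF7 and POU2AF1) had a promoter peak in both lists. Of 8 stromal markers, 5 had one as well, and COL3A1, THY1 and LUM did not. Over all protein-coding genes on chromosomes 1 to 22 the share was 67.2% (12609 of 18765), so a promoter peak alone does not mark a cell type. The lists give no height for these peaks, and the part of HS5 chromatin in them was not tested. By the rule, each member was also called in the MONO libraries, 3 for MM.1S and 1 for RPMI8226, which were grown without HS5. This follows from the selection and is not a test of HS5 chromatin.

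The boundaries of the members differed between lines. The MM.1S peak had a median width of 625 bp (quartiles 497 and 807, range 197 to 3202), and the RPMI8226 counterpart 437 bp (335 and 574, range 130 to 3348). The MM.1S peak was the wider of the pair in 89.1% of members, and the RPMI8226 peak lay wholly inside it in 72.6%. Midpoints were nonetheless close, with a median offset of 44 bp, and 79.4% (78.7 to 80.1) were within 100 bp of each other. Only 236 members touched more than 1 RPMI8226 peak. Widths come from the same calls as the selection and are given as a description. The lists pool 9 libraries in one line and 5 in the other, and the part of this in the widths was not tested.

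Members fell in introns at about the share that introns take of the distal genome. By midpoint, 6424 members (54.2%, 53.3 to 55.1) were in an intron, 4892 (41.3%, 40.4 to 42.2) were intergenic and 537 (4.53%) were in an exon. Of the known bases outside the promoter windows, 55.0% were intronic, 42.1% intergenic and 2.90% exonic. Intron shares of the other classes were 54.9% for shared peaks not constant in both lines and 57.7% for MM.1S-only peaks. The difference from the former spanned 0 (-0.73 percentage points, 95% interval -1.95 to 0.49), whereas members were less often intronic than MM.1S-only peaks (-3.52 points, -4.68 to -2.36). When only protein-coding genes were counted, 42.1% of members were in introns and 54.5% lay outside genes.

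Among members in introns of protein-coding genes, 1328 of 4989 (26.6%, 25.4 to 27.9) were in the first intron of the canonical transcript. First introns made up 21.0% of the intronic bases of these genes outside the promoter windows. The share was 24.5% in shared peaks not constant in both lines and 22.1% in MM.1S-only peaks, so that members exceeded them by 2.14 points (0.49 to 3.78) and 4.55 points (3.02 to 6.09). Host and nearest gene were not always the same. In 83.6% (82.6 to 84.6) of intronic members the gene around the peak was also the gene with the nearest protein-coding TSS. Outside protein-coding genes, 61.3% (60.1 to 62.5) of members lay on the upstream side of the nearest TSS, against 61.6% and 59.2% in the other classes.

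The nearest TSS of any gene was a median of 12.4 kb away (quartiles 6.58 and 26.1 kb), with a floor set by the promoter window. It belonged to a protein-coding gene for 47.4% of members, to a long non-coding RNA for 28.1% and to another kind of gene for 24.5%. The nearest protein-coding TSS was a median of 32.7 kb away (13.3 and 87.5 kb), compared with 35.9 kb in shared peaks not constant in both lines and 42.3 kb in MM.1S-only peaks. The largest group, 43.6% of members, lay 10 to 50 kb from it, and 457 members (3.86%) lay over 500 kb away. Read the other way, members were 28.4% (27.4 to 29.5) of the distal MM.1S peaks within 10 kb of a protein-coding TSS and 19.4% (17.9 to 21.1) of those over 500 kb away.

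**Figure D2:**
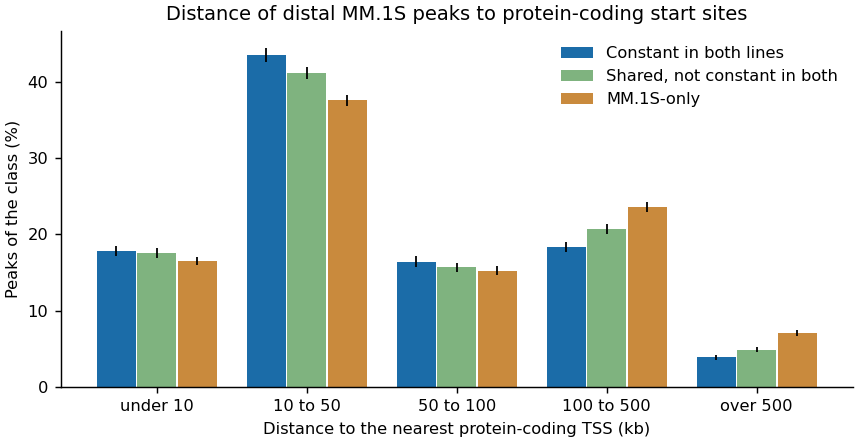
Share of peaks in each class (vertical axis, percent) by distance to the nearest protein-coding TSS (horizontal axis, kb), with 95% Wilson intervals as bars. Members exceed both other classes at 10 to 50 kb (43.6%) and fall below them beyond 100 kb (18.4% at 100 to 500 kb and 3.86% over 500 kb).

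A small set of members lay far from protein-coding genes. There were 146 members (1.23%) over 1 Mb from a protein-coding TSS, with 21 on chromosome 21, 18 on chromosome 4, 16 on chromosome 22 and the rest on 17 other autosomes. Only 1 member was over 1 Mb from a TSS of any kind. The widest member, chr21:6369350-6372552, spanned 3202 bp in MM.1S and 3348 bp in RPMI8226 and lay 4151 kb from TPTE, with the TSS of a Y_RNA gene 5.0 kb away. The next widest were chr11:130179739-130182192 (2453 bp), in an intron of ST14, and chr2:98472010-98474456 (2446 bp), in an intron of INPP4A. Their RPMI8226 counterparts were only 810 and 218 bp wide. The member farthest from a TSS of any kind was chr1:125179873-125180407, at 3600 kb, followed by chr5:49599424-49600886 and chr5:49601224-49602897, at 812 and 810 kb from the nearest start of EMB. Multi-mapping reads had been removed by the authors, and no member shared its central 200 bases exactly with another member (0 of 11853). Inexact copies and copies outside the members were not searched, so the part of repeated sequence at these far and wide sites was not tested.

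Members were spread over all 22 autosomes, from 1.99 per Mb on chromosome 14 to 5.91 per Mb on chromosome 20. As a share of distal MM.1S peaks they ranged from 23.2% (21.6 to 24.9) on chromosome 4 to 31.1% (29.5 to 32.8) on chromosome 3. Neighbouring members were a median of 95.5 kb apart, 9.62% of neighbours were within 10 kb of each other and 12.3% were over 500 kb apart.

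Members crowded in a few stretches. At chr2:98412706-98505770, 11 members fell within 100 kb, all nearest to INPP4A, a phosphoinositide phosphatase, and 9 of them were intronic. At chr1:181104659-181180270, 9 members lay near IER5, an immediate early gene, and made up most of the 12 distal MM.1S peaks there. The window at chr19:2552778-2637671 held 9 members nearest to GNG7, a G protein subunit, or GADD45B, a stress and NF-kB response gene. All 9 were in introns, and they were the only distal MM.1S peaks in that stretch.

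Each member was next linked to the gene with the nearest protein-coding TSS, which is a position and not evidence of regulation. Of 18765 protein-coding genes, 6210 (33.1%) were nearest to at least 1 member, 3448 to exactly 1, and 373 to 5 or more. The 373 genes took 20.2% of all members. RUNX1, a blood lineage transcription factor, had 17 members, of which 15 lay in introns of protein-coding genes, at 8.28 to 390 kb from its TSS. MYC, the growth regulator, had 16 at 51.2 to 920 kb, none of them in an intron of a protein-coding gene. HIVEP3, a zinc finger gene, had 13 members, all in introns, and INPP4A 12 at 4.92 to 36.6 kb. TLE3 (a corepressor) had 12, ID2 (an inhibitor of helix-loop-helix factors) 11, and TBL1XR1, a gene of a nuclear receptor corepressor complex, 14.

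Some other long lists held members very far from the gene. TPTE had 18 members, the most of any gene, but the closest was 1255 kb away, and the 16 members nearest to OR11H1, an olfactory receptor, were at least 2654 kb away. TAFA5 had 16 members and KHDRBS3 14, and the latter were all at least 112 kb from the TSS. ANKRD55, B3GALT2, CNTNAP2 and PLA2G4A had 11 each, as did TENM4. Neither TPTE nor OR11H1, ANKRD55, B3GALT2 or CNTNAP2 had a promoter peak in both lists.

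Promoter peaks were counted beside the number of members. A promoter peak in both lists was found for 65.6% (64.8 to 66.4) of genes with 0 members, 67.3% (65.7 to 68.8) with 1, 73.5% (71.7 to 75.3) with 2 to 4 and 78.8% (74.4 to 82.7) with 5 or more. Per peak, 73.2% (72.4 to 74.0) of members were nearest to a gene with such a promoter. That was 4.47 points (3.36 to 5.58) above shared peaks not constant in both lines and 8.67 points (7.59 to 9.73) above MM.1S-only peaks. This measure asks for a promoter peak in RPMI8226 too, a line in which MM.1S-only peaks were by definition not called.

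Gene lists were compared with all protein-coding genes by 2 measures, the share of genes with a member and the number of members per Mb of the stretch nearest to the listed genes. Over all genes these were 33.1% and 4.12 per Mb. Plasma cell regulators and surface genes reached 18 of 24 genes (75%, 55.1 to 88.0) and 17.0 per Mb. PRDM1, the repressor that drives plasma cell differentiation, had 10 members at 7.92 to 235 kb. FCRL5 had 7, CXCR4, the homing receptor for bone marrow, had 6, and CD38, SDC1 (the plasma cell syndecan CD138) and POU2AF1, an octamer coactivator, had 5 each. The 5 members of POU2AF1 were all in introns, at 7.57 to 30.9 kb. IRF4 and XBP1 had 2 each. The 6 genes without a member were CREB3L2, FKBP11, IKZF1, ITGB7, MZB1 and TNFRSF17, and each of them had a promoter peak in both lists. Within 100 kb, IKZF1 and TNFRSF17 had 2 members each and CREB3L2, FKBP11, ITGB7 and MZB1 had 0.

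Distal MM.1S peaks of all classes numbered 49.9 per Mb near these genes and 15 per Mb over all genes. As a share of the distal MM.1S peaks nearest to each list, members were 34.1% (27.5 to 41.4) for plasma cell genes, 34.2% (24.5 to 45.4) for B cell genes and 34.8% (25.7 to 45.2) for secretory genes, beside 27.5% over all genes. The share was 28.6% (22.6 to 35.4) for myeloma genes and 23.1% (16.2 to 31.9) for genes the study names. It was 25% for architecture, 24.4% for liver, 23.2% for stromal and 22.5% for neuronal genes. By this measure plasma cell genes did not stand apart from the B cell and secretory lists.

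Myeloma oncogenes, cyclins and survival genes had a member at 12 of 25 genes (48.0%) and 8.39 members per Mb. After MYC came TENT5C, a poly(A) polymerase gene often mutated in myeloma, with 9 at 11.5 to 68.6 kb, then MAF with 8, and BCL2, the survival factor, and CCND2, a cyclin, with 4 each. CDK4, RB1 and MCL1 were among the 13 with none nearest to them, although MCL1 had 2 within 100 kb (CDK4 and RB1 0). B cell genes that plasma cells silence had members at 10 of 17 genes (58.8%) and 9.42 per Mb. BACH2 and PAX5, both regulators of B cell identity, had 7 and 4, BCL6 and EBF1 3 each, and CIITA, the activator of antigen presentation genes, 2 in introns. Genes of the secretory pathway and the unfolded protein response had members at 14 of 22 (63.6%) and 5.12 per Mb, led by EDEM1, of misfolded protein degradation, with 8, SEC61B, a translocon subunit, with 5, and ERN1, the stress sensor IRE1, with 4 intronic ones.

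The list of genes that the study names reached 12 of 18 (66.7%) and 7.65 per Mb, with 7 members at PPP3CA, the calcineurin catalytic subunit, 4 at VEGFA, 3 at CDK6 and 2 each at ABCA1 and SGK1. JUNB, STAT3, ATF4, MCL1, MCM5 and USP14 had none nearest to them. Within 100 kb, however, ATF4 had 5 members, MCL1 and MCM5 2 each, STAT3 and USP14 1 each and JUNB 0. Distal MM.1S peaks of all classes were also dense there, at 33.0 per Mb. This list came from changes in the same cells and is not independent. Genes of chromosome architecture had members at 6 of 12 (50.0%) and 3.59 per Mb, where YY1 had 2 and CTCF itself 0. Both genes had 4 members within 100 kb.

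Lists of other tissues were not empty. Stromal genes had members at 11 of 26 genes (42.3%) and 2.87 per Mb, with at most 2 per gene, among them CXCL12, DCN, FAP, NT5E and PDGFRA. Neuronal genes had members at 9 of 20 (45.0%), and CNTNAP2 (11), DLG2 (9) and LRP1B (5) led that list, but their stretches were long and the density was 2.28 per Mb. Liver genes had members at 6 of 20 (30.0%) and 6.01 per Mb, led by FOXA2 with 4 and G6PC1 with 2. The 2 measures thus ordered the lists differently. Of the 9 lists, 6 exceeded the density over all genes, the liver list included. With every member within 100 kb linked to a gene, the liver list turned from below to above the share over all genes (75% against 63.2%), and the stromal (46.2%) and neuronal (50.0%) lists turned from above to below it. Plasma cell genes were not the highest by that link, at 83.3% beside 94.1% for B cell genes and 94.4% for genes the study names.

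**Figure D3:**
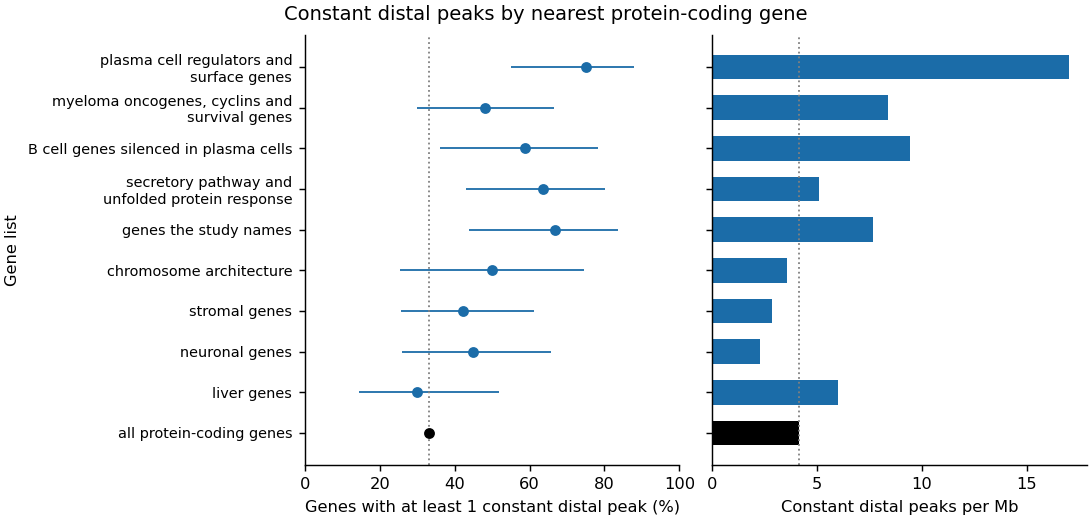
Left, share of the genes of each list that are nearest to at least 1 member (percent, with 95% Wilson intervals), and right, members per Mb of the stretch nearest to those genes, with dotted lines at the value over all protein-coding genes (33.1% and 4.12 per Mb). Plasma cell genes are highest on both, at 75% and 17.0 per Mb, whereas neuronal genes lie above the line on the left and below it on the right (45.0% and 2.28 per Mb).

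Sequence was not used to select the members, and 15 motifs were searched on both strands of the central 200 bp. Flanking windows of the same length, 2000 bp outside each peak edge, served as background. AP-1 (TGANTCA) was the most frequent, in 14.5% of members (13.9 to 15.1) against 6.07% of flanking windows. RUNX (TGTGGTT) followed with 11.5% against 3.39%, ISRE with 8.30% against 3.18%, and CTCF with 5.86% (5.45 to 6.29) against 0.22%. Relative to the flanks CTCF stood highest, at 26.7 times the background share. The rarer NRF1 (9.99, from 5 members), SP/KLF (4.70), NF-kB (4.57) and CRE (4.33) came next, then ETS (GAGGAAGT) at 3.58, RUNX at 3.39 and AP-1 at 2.38 times. The patterns differ in length, and the CTCF background rested on 52 of 23684 windows, so the ratios do not rank motifs on a like footing. EICE, which can overlap ETS, was in 5.37% and ETS in 3.76%.

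For 4 motifs the interval of the difference from the flanks held 0. ATF::CEBP (TGATGNAA), a stress response element, was in 3.38% of members and 3.75% of flanking windows, YY1 (AAGATGGC) in 0.78% and 0.89%, STAT (TTCCNGGAA) in 0.60% and 0.50%, and OCT (ATGCAAAT) in 1.81% and 1.64%. NF-kB was above the flanks, at 3.28% against 0.72%, and so was MEF2, at 0.98% against 0.54%. The promoter-type motifs were rare, with SP/KLF (GGGCGGGG) in 2.32%, CRE (TGACGTCA) in 0.22% and NRF1 in 0.042%. Promoter peaks constant in both lines held SP/KLF in 18.5%. None of the 15 motifs was found in 6066 members (51.2%). A match is a string of letters and was not tested for binding.

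The other distal classes set these shares in context. AP-1 exceeded MM.1S-only peaks (8.58%) by 5.89 points (5.14 to 6.66) but was slightly below shared peaks not constant in both lines (15.5%), by 0.98 points (interval of the difference -1.85 to -0.11). CTCF showed the same order, at 4.34% in MM.1S-only and 7.13% in the other shared peaks, 1.28 points above members (difference -1.88 to -0.67). The AP-1 share of members was 15.6% with a reciprocal overlap of 50% and 16.1% in the central window of the RPMI8226 peak. The other shared peaks were not counted again at these settings, so the AP-1 order holds for the main setting only. RUNX was more frequent in members than in the other shared peaks (9.89%) by 1.61 points (0.86 to 2.37). Against the MM.1S-only peaks called in all 9 libraries, which held RUNX in 12.0%, the difference spanned 0 (-0.45 points, -1.63 to 0.68). ISRE differed from the other shared peaks by 0.00 points with an interval of -0.68 to 0.67. GC content was close across distal classes, with medians of 49.0% in members, 48.0% and 47.5%, whereas the flanks were at 44% and promoter peaks at 65.0%. Widths were less alike, with medians of 625 bp in members, 417 bp in the other shared peaks and 415 bp in MM.1S-only peaks. Members of 197 to 497 bp held AP-1 in 16.8% and CTCF in 7.90%, above the other shared peaks as a whole. The classes were not compared at like width, so the orders given here hold only for the classes as they stand.

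**Figure D4:**
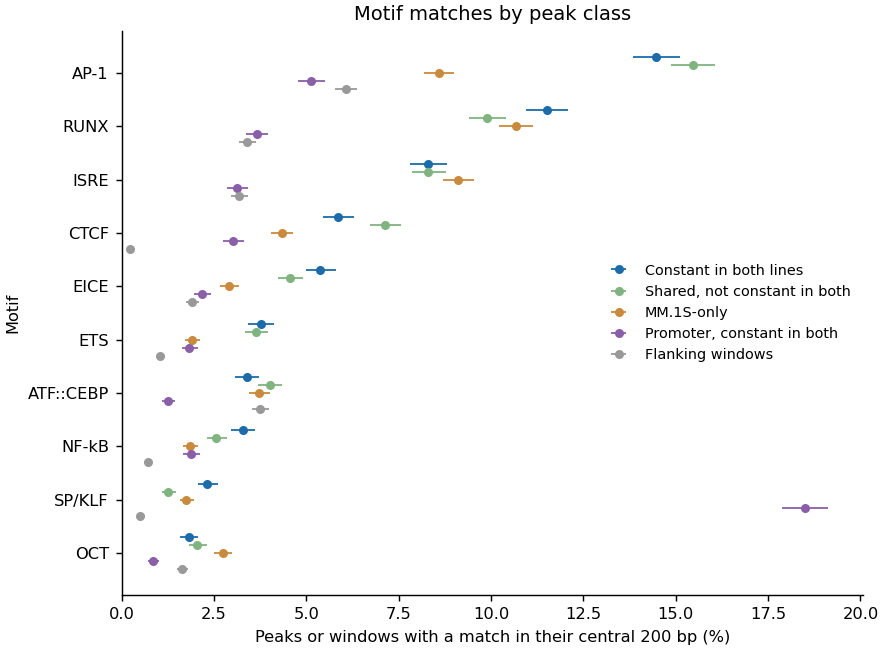
Share of peaks or windows with a match in the central 200 bp (horizontal axis, percent, with 95% Wilson intervals) for 10 motifs and 5 classes. Members and other shared distal peaks lie together for AP-1 (14.5% and 15.5%), above MM.1S-only peaks (8.58%), while SP/KLF stands out in promoter peaks (18.5%).

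Matches gathered at the centre of the peak. Within 500 bp on either side of the midpoint, 741 of 1211 CTCF matches (61.2%) were within 100 bp of it. The corresponding shares were 38.2% for ETS, 36.5% for RUNX and 33.5% for AP-1. The scanned stretch was wider than most members (median width 625 bp, upper quartile 807 bp), so it also took in sequence outside the peak.

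**Figure D5:**
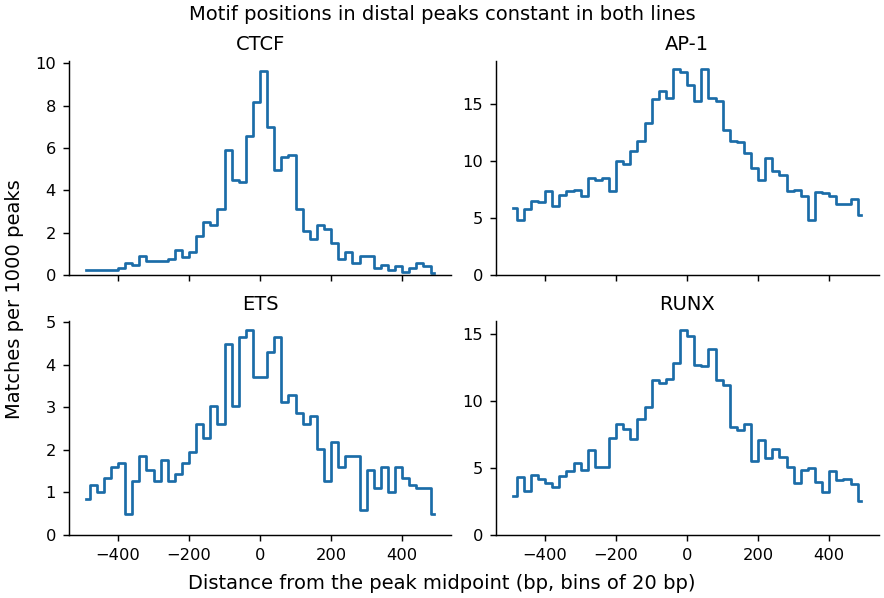
Matches per 1000 members (vertical axes) in bins of 20 bp by distance from the peak midpoint (horizontal axes, bp) for CTCF, AP-1, ETS and RUNX. All 4 profiles peak near the midpoint, and CTCF is the narrowest, with 61.2% of its matches within 100 bp.

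CTCF and AP-1 varied in opposite ways with distance. CTCF matches fell from 7.11% (6.09 to 8.29) of members within 10 kb of a protein-coding TSS to 3.63% (2.92 to 4.50) at 100 to 500 kb, and AP-1 went from 11.8% (10.5 to 13.3) to 16.5% (15 to 18.1). ISRE went from 6.78% to 10.8% over the same bins, and ETS stayed between 3.64% and 4.38% in all 5 bins. Peak width separated CTCF more sharply. In 4 equal groups by MM.1S width the CTCF share was 7.90%, 9.23%, 5.07% and 1.25% from narrowest to widest, and AP-1 16.8%, 15.9%, 14.2% and 11.1%. A fixed central window covers less of a wide peak, and the part of this was not tested.

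With MM.1S support held at 9, the AP-1 share was 8.02% where RPMI8226 support was 3, 11.3% at 4 and 14.5% at 5. CTCF ran the other way, at 10.2% (8.28 to 12.6), 7.78% (6.52 to 9.27) and 5.86%. Neither order held throughout. Without an RPMI8226 peak CTCF was lowest, at 2.75% (2.29 to 3.30), and AP-1 was 8.34%. With RPMI8226 support held at 5, AP-1 lay between 18.3% and 20.5% for MM.1S support of 3 to 7. Peaks called in 8 MM.1S and 5 RPMI8226 libraries, just outside the rule, held AP-1 in 17.1% and CTCF in 7.07%.

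The 694 CTCF-bearing members were narrower than members overall (median 538 bp against 625 bp), closer to a protein-coding TSS (25.3 against 32.7 kb), richer in GC (56.5% against 49.0%) and more often intergenic (51.3% against 41.3%). AP-1-bearing members lay at 37.8 kb and were intergenic in 39.7%. Both motifs occurred together in 47 members, or 6.77% of those with CTCF, while AP-1 and RUNX shared 220 members. The CTCF match, which has a direction, was on the plus strand in 337 members, on the minus strand in 354 and on both in 3. Of 669 neighbouring pairs of CTCF-bearing members, 170 (25.4%, 22.3 to 28.8) pointed towards each other, 168 (25.1%) away from each other and 331 (49.5%) the same way. At 200 kb to 1 Mb apart, 30.1% (24.0 to 37.0) of 186 pairs pointed towards each other and 26.9% (21.0 to 33.7) away from each other. Over 1 Mb apart were 430 pairs, of which 23.5% (19.7 to 27.7) pointed towards each other and 24.2% away.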

How the data were processed

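Omni-ATAC was performed on 14 libraries, grouped by cell line and culture from their titles. Per the study's methods and the submitters' notes, the authors aligned reads to hg38 with Bowtie2, removed multi-mapping and duplicate reads, called peaks with MACS3 and kept peaks found in at least 3 libraries of a line. Versions, threshold, joining of boundaries and any transposase shift are not given in the sources used here. The 2 deposited lists have no header, and their only value is a support number (3 to 9 and 3 to 5), read as a count of libraries because its range matches the minimum and the number of libraries. This unit was deposited without normalization. The lists hold no reads or depth. Read totals of the libraries stand in the study's supplement, are lowest for a MM.1S MONO library and were not used as data here. Differential tests between cultures need read counts and were not run.

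Start sites and introns were those of GENCODE release 44 (RefSeq in the study). Location was set by the MM.1S peak midpoint. Peak coordinates are printed as deposited and sequence windows are counted from 1. Motifs of 10 or more letters are given by name. Python 3.11.15, pandas 2.3.3, numpy 2.4.6, scipy 1.17.1 and matplotlib 3.10.9 were used. Shares carry Wilson intervals and differences of shares Newcombe intervals, both 95%. Functions were tested on simulated data. Members, gene lists and motifs were chosen with earlier results of these data known. Named were the 15 genes with most members (and 1 tied), up to 5 genes per list, the 3 widest, 3 farthest and 3 densest sites, and otherwise genes picked after their values were seen. Of 26 listed myeloma genes 25 were matched on chromosomes 1 to 22. Alternatives varied the TSS window, gene set, overlap, support and motif window. Density per Mb and the base shares outside promoter windows were added after the data were seen.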

Additional observations from a re-analysis of the deposited data

How the results depend on the processing

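Of 41 alternative values of the 8 main measures, 19 stayed within their counting interval (for counts, within 1.5 times) and 22 moved. These alternatives were computed for members only, so the order of members and the other classes was not tested under them. The number of members ran from 9771 to 15249. With a TSS window of 1000 bp the intron share was 55.3%, the median distance to a TSS 10.4 kb and the spacing 79.9 kb, and with 5000 bp the distance was 15.7 kb and the spacing 123 kb. With promoter windows around protein-coding TSSs only, the intron share was 52.9% and the distance, still to any TSS, 8.67 kb. The AP-1 share was then 13.7%, the width 644 bp and the spacing 70.1 kb. With a reciprocal overlap of 50%, AP-1 was 15.6%, the width 596 bp and the spacing 120 kb. Introns of protein-coding genes alone gave 42.1%, the nearest protein-coding TSS 32.7 kb, and the RPMI8226 peak a width of 437 bp. Scanning whole peaks gave CTCF 9.86% and AP-1 31.9%, and the RPMI8226 window 6.40% and 16.1%. The share of members near a gene with a promoter peak in both lists was 68.8% with promoters of 1000 bp and 66.7% with promoter peaks of every library. Linking every member within 100 kb moved 2 of 9 gene lists by over 1.5 times, the B cell list from 10 to 16 genes and the liver list from 6 to 15, while 63.2% of all genes then had a member.

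No paired analysis was possible because the lists hold no value for a single library. Leaving out a replicate was not run for the same reason. Depth, which the lists do not give, limits every absence of a peak, and its part in the rule of presence in every library was not tested. A constant call does not give a constant height.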
